A study of Saccharomyces cerevisiae with 3 samples.

Results

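The genes described are those of the yeast proteasome: the subunits of its core and regulatory particles, the factors that assemble them, and 3 associated proteins. They were picked by gene symbol from known complex membership, 45 genes in all, and 44 of them had named spots among the 5539 genes on the array. The lid subunit gene SEM1 had no named spot and was not analysed here. Of the 44 genes, 43 had 2 spots each and BLM10 had 4. The samples were wild-type Saccharomyces cerevisiae cells exposed to 0.2 mM arsenite, As(III), for 1 h, against untreated wild-type cells. RNA of both was hybridised together on each of 3 arrays, so an array gives 1 ratio per spot. Cy5 marked the treated RNA on the first 2 replicates, and the dyes were exchanged on replicate 3. The labels give no strain name, mating type or growth medium, and nothing in them ties an array to its own culture.

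The proteasome is the large protease that degrades proteins tagged with ubiquitin in the cytosol and nucleus. Its barrel-shaped core is built from stacked rings of alpha and beta subunits, with the proteolytic sites on certain beta subunits inside the chamber. A regulatory particle caps the barrel: its base holds a ring of ATPases that unfold substrates, and its lid carries the enzyme that removes ubiquitin chains. Dedicated chaperones guide assembly of the core and of the base and are not part of the finished particle. In yeast, the transcription factor Rpn4 activates most subunit genes through a shared promoter element and is itself a short-lived substrate of the proteasome. Arsenite binds thiols and is known to misfold newly made proteins.

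Values are given as log2 of the ratio, arsenite-treated over untreated, where 1 is a 2-fold difference and 0 is the median of all genes on that array, so a value is relative to the bulk of transcripts and does not measure RNA per cell. Base 2 is an assumption, since no source names the base of the logarithm; with a natural logarithm every value would be 1.443 times as large. The direction assumes a ratio of Cy5 over Cy3, which no source states either, and the opposite reading would turn every sign. Replicate 3, deposited with the opposite sign pattern (r = -0.782 with replicate 1 and -0.613 with replicate 2 over spots), was multiplied by -1. Before centring, the gene medians were -0.10, 0.52 and -0.14 on replicates 1, 2 and 3, so replicate 2 stood apart in its offset. Errors are SD over the 3 arrays. "Rose" and "fell" mean a limma p under 0.05 after Benjamini-Hochberg adjustment over all 5539 genes. For these p-values limma drew a gene's variance mostly from all genes, with 10.8 prior degrees of freedom beside 2 residual. The SD printed beside a p-value is therefore not the error used for it. PRE4 and PRE8, for example, had SDs of 0.04 and 0.59 but standard errors of 0.18 and 0.22 in the fit. Variation among the 3 arrays, in 1 gene or in all, may be technical.

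Proteasome transcripts were higher in arsenite-treated cells in most classes of the complex. Of the 44 measured genes, 32 rose, 1 fell and 11 did not pass, where 14.5% of all genes rose and 18.1% fell. At least 2-fold rises were reached by 21 of the 44, against 5.29% of all genes. The values lay above 0 on all 3 arrays for 38 of the 44, as they did for 29.2% of all genes. The median over the 44 genes was 1.00, 0.85 and 0.99 on replicates 1, 2 and 3. Of the 44 genes, 32 lay among the 554 genes with the highest means, and the highest of them, PRE8, ranked 95th; with the sign turned these would be places among the lowest means. The counts were 28, 36 and 32 genes that rose without replicate 1, 2 or 3, with 1 that fell each time.

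**Figure D1:**
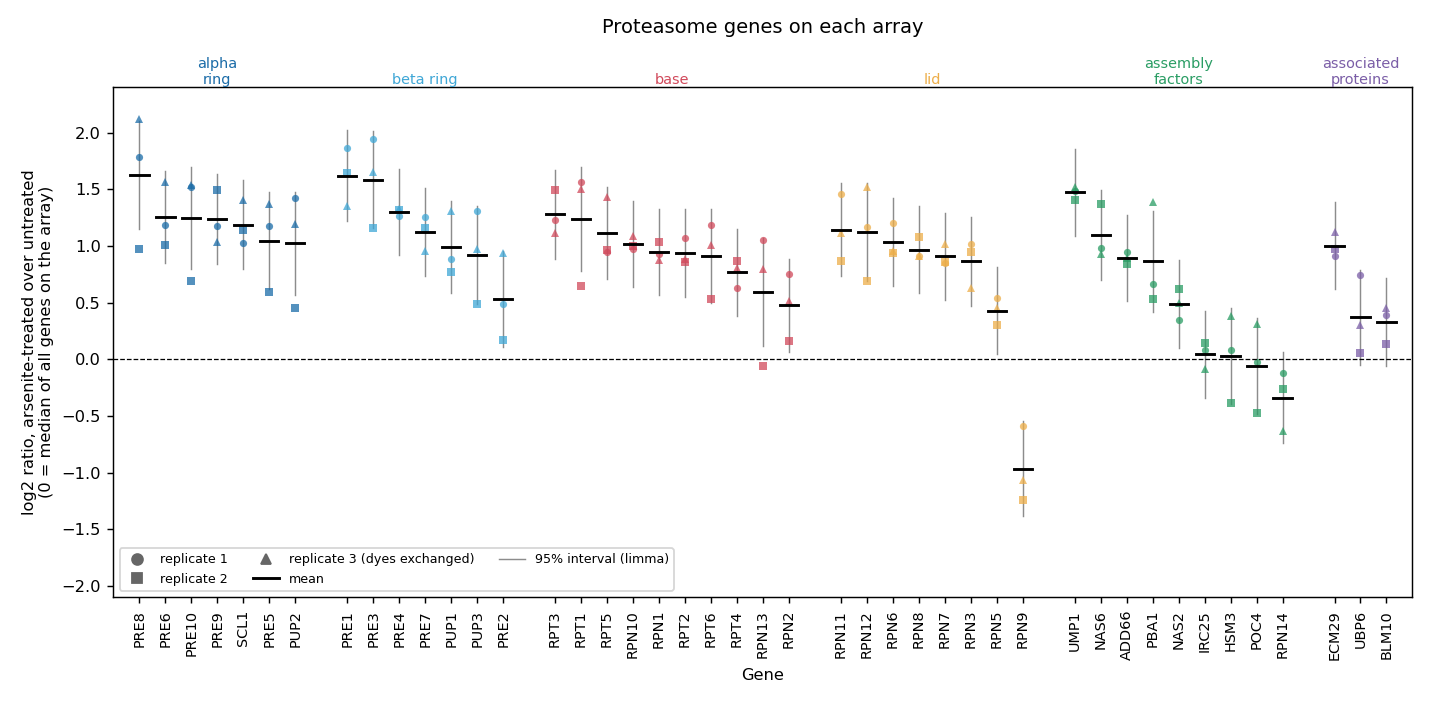
Each measured proteasome gene is a column, with its log2 ratio of arsenite-treated over untreated cells on the 3 arrays as symbols, the mean as a black bar and the 95% interval of the limma fit as a grey line. The alpha ring lies between 1.02 and 1.63 in its means, RPN9 stands alone among the subunits at -0.96, and the assembly factors spread from -0.34 to 1.47.

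The alpha ring, which forms the outer rings of the core and gates entry to the chamber, was higher in every measured member: 7 of 7 rose, all by at least 2-fold. PRE8 had 1.78, 0.98 and 2.12 on replicates 1, 2 and 3. It was the highest of all the subunits on average, at 3.09-fold (1.63 ± 0.59, n = 3, limma adjusted p = 9.36e-05), and its lowest array was replicate 2. PRE6 had 1.19, 1.01 and 1.56 (1.25 ± 0.28) and PRE10 had 1.52, 0.69 and 1.54 (1.25 ± 0.48). PRE9, the only core subunit that yeast can live without, had 1.17, 1.49 and 1.04 and was 2.35-fold higher (1.23 ± 0.23). SCL1 (1.19 ± 0.19) and PRE5 (1.05 ± 0.41) followed. PUP2 was the lowest of the ring, with 1.42, 0.45 and 1.20 (1.02 ± 0.51, limma adjusted p = 0.00221). Its call was lost on leaving out replicate 1 (adjusted p = 0.0537). Replicate 2 gave the lowest value for 5 of the 7 alpha genes and for 26 of the 44 proteasome genes, where 39.4% of all genes were lowest on that array.

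Of the 7 beta subunit genes 6 rose, and the 3 that carry the proteolytic sites did not move by the same amount. PRE3, of the caspase-like site, had 1.94, 1.16 and 1.66 and was 3.00-fold higher (1.59 ± 0.40, limma adjusted p = 4.81e-05). PUP1, of the trypsin-like site, had 0.89, 0.77 and 1.31 and was 1.98-fold higher (0.99 ± 0.28). PRE2, of the chymotrypsin-like site, had 0.49, 0.17 and 0.94. Its mean of 0.53 ± 0.39 missed the threshold (limma adjusted p = 0.0550, 95% interval 0.10 to 0.96). Without replicate 2 it passed (0.71, adjusted p = 0.00834), and without replicate 3 it was 0.33 (adjusted p = 0.286). PRE2 was below PRE3 by 1.46, 0.99 and 0.72 and below PUP1 by 0.40, 0.60 and 0.37 on the 3 arrays, a difference of 1 sign that was picked out after the values were seen and not tested.

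Among the structural beta subunits, PRE1 had 1.86, 1.65 and 1.36 and was 3.08-fold higher (1.62 ± 0.25, limma adjusted p = 2.45e-05). PRE4 was the most even gene of the core across arrays, with 1.26, 1.32 and 1.32 (1.30 ± 0.04). PRE7 had a mean of 1.12 ± 0.15. PUP3 had 1.31, 0.48 and 0.97 (0.92 ± 0.41), and its call was lost on leaving out replicate 1 (limma adjusted p = 0.101). The median of the beta ring was 1.26, 1.15 and 1.31 on replicates 1, 2 and 3, and that of the alpha ring 1.19, 0.98 and 1.40. The beta median was higher on 2 arrays and lower on 1 (difference 0.05 ± 0.14), so the rings did not separate beyond the spread between arrays.

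All 6 ATPase genes of the base rose. RPT3 had 1.23, 1.50 and 1.11 and was 2.43-fold higher (1.28 ± 0.20, limma adjusted p = 0.000131). RPT1 had 1.56, 0.65 and 1.50 (1.24 ± 0.51) and RPT5 had 0.94, 0.97 and 1.43 (1.11 ± 0.27). RPT2 (0.94 ± 0.12) and RPT6 (0.91 ± 0.34) were lower, and the call of RPT6 was lost on leaving out replicate 1 (limma adjusted p = 0.0773). RPT4 was the lowest ATPase, with 0.63, 0.87 and 0.80 (0.77 ± 0.12, limma adjusted p = 0.00498). The ATPase values therefore covered a range of 1.70-fold to 2.43-fold.

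The non-ATPase part of the base holds scaffolds and ubiquitin receptors, and 2 of its 4 genes rose. RPN10, a ubiquitin receptor, had 0.97, 1.00 and 1.09 and was 2.03-fold higher (1.02 ± 0.06, limma adjusted p = 0.000640). RPN1, the scaffold that docks ubiquitin-like domains, had 0.93, 1.03 and 0.88 (0.95 ± 0.08). RPN2, the related scaffold, had 0.75, 0.17 and 0.51 (0.48 ± 0.29, adjusted p = 0.0706). RPN13, the receptor held by Rpn2, had 1.05, -0.06 and 0.80 (0.59 ± 0.58, adjusted p = 0.0552). Both missed the limma threshold with all 3 arrays and passed it when replicate 2 was left out, at adjusted p = 0.0154 for RPN2 (0.63) and 0.000851 for RPN13 (0.92). Without replicate 1 they were lower, at 0.34 for RPN2 (adjusted p = 0.548) and 0.37 for RPN13 (adjusted p = 0.505). Their 95% intervals, 0.07 to 0.88 and 0.12 to 1.07, lay above 0, but these are not adjusted over genes as the threshold is. The median of the ATPase genes exceeded that of the 4 other base genes by 0.18, 0.28 and 0.22 on the 3 arrays.

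In the lid, 6 of 8 measured genes rose, 1 fell and 1 did not pass. RPN11, the metalloprotease that removes ubiquitin chains from substrates, had 1.46, 0.87 and 1.11 and was 2.21-fold higher (1.14 ± 0.30, limma adjusted p = 0.000442). RPN12 had 1.16, 0.69 and 1.52 (1.12 ± 0.41), and RPN6, which clamps the lid to the core, had 1.20, 0.94 and 0.96 (1.03 ± 0.15). RPN8, the partner of Rpn11, had 0.97 ± 0.09. RPN7 had 0.91 ± 0.09. RPN3 had 0.86 ± 0.21, a call lost on leaving out replicate 1 (limma adjusted p = 0.0699). RPN5, a scaffold subunit of the lid, had 0.54, 0.30 and 0.45 (0.43 ± 0.12, limma adjusted p = 0.0828, 95% interval 0.04 to 0.82).

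RPN9, a lid subunit that is not essential for growth in yeast, ran against the complex. It had -0.59, -1.24 and -1.06 on replicates 1, 2 and 3 and fell. Relative to the median gene, it was at 0.512 of its untreated level (-0.96 ± 0.34, limma adjusted p = 0.00175, 95% interval -1.38 to -0.55). It was the lowest of the 44 genes on every array. Both of its spots were below 0 on every array, between -0.54 and -0.64 on replicate 1, between -1.19 and -1.30 on replicate 2 and between -0.95 and -1.18 on replicate 3. It lay below the median of the measured subunits by 2.00 ± 0.21 on average. The next lowest subunit was RPN5, from which RPN9 differed by -1.13, -1.54 and -1.51. RPN9 fell under all 10 alternative settings, with means of -1.15 to -0.83 and limma adjusted p of up to 0.0158. Whether its spots report the RPN9 transcript alone was not tested, because no probe sequence was at hand.

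The base and lid had lower medians than the core. The median of the core was 1.26, 0.99 and 1.34 on replicates 1, 2 and 3 (1.20 ± 0.18). That of the base was 1.01, 0.86 and 0.95 (0.94 ± 0.08), and that of the lid was 0.97, 0.86 and 0.93 (0.92 ± 0.05). The base lay below the core by 0.25, 0.13 and 0.39 and the lid by 0.29, 0.13 and 0.41, lower on all 3 arrays. By medians of the genes' means, the difference from the core was -0.27 for the base and -0.27 for the lid. Leaving out replicate 3 reduced these to -0.14 and -0.15, about the size of the difference between the rings, which was -0.21 to 0.11 with 1 array left out. No p-value is given for class medians: 3 arrays allow no exact two-sided sign test below p = 0.25, and the classes were compared with earlier results known. Of the 14 core genes 11 rose at least 2-fold, as did 7 of the 18 genes measured in the base and lid and 5.29% of all genes. The base and lid medians of 0.94 and 0.92 lie just below the cut of 1. The counts therefore separate the classes more than the medians do.

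**Figure D2:**
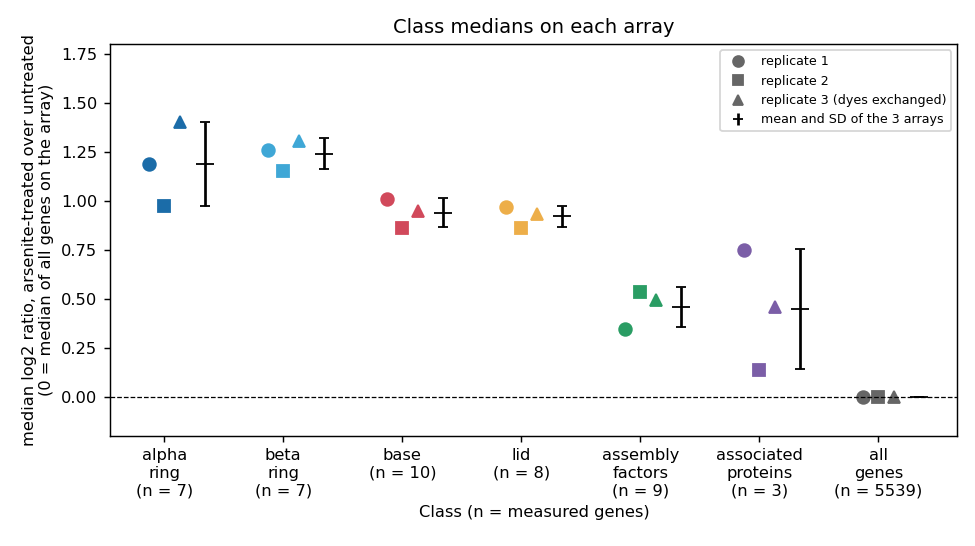
Each symbol is the median log2 ratio (arsenite-treated over untreated) of 1 class on 1 array, with the mean and SD of the 3 arrays beside it and all genes at the right for scale. The core rings lie highest (means 1.19 and 1.24), the base and lid near 0.9, and the assembly factors at 0.46.

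Among the subunits the means were spread by 0.46 (SD over 32 genes), or by 0.30 over 31 genes without RPN9, beside a median standard error of 0.19 for 1 gene. The order of the subunits was repeated only in part. Without RPN9, Pearson's r across the 31 genes was 0.403 between replicates 1 and 2, 0.683 between replicates 1 and 3 and 0.341 between replicates 2 and 3. These values describe genes that share an array and are not independent. Subunits close in the order, such as RPN1, RPT2 and PUP3 at 0.95, 0.94 and 0.92, did not differ beyond their spread. Duplicate spots agreed more closely than arrays did: over 43 proteasome genes, the SD between a pair's spots was 0.16 on replicate 1, 0.17 on replicate 2 and 0.14 on replicate 3.

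**Figure D3:**
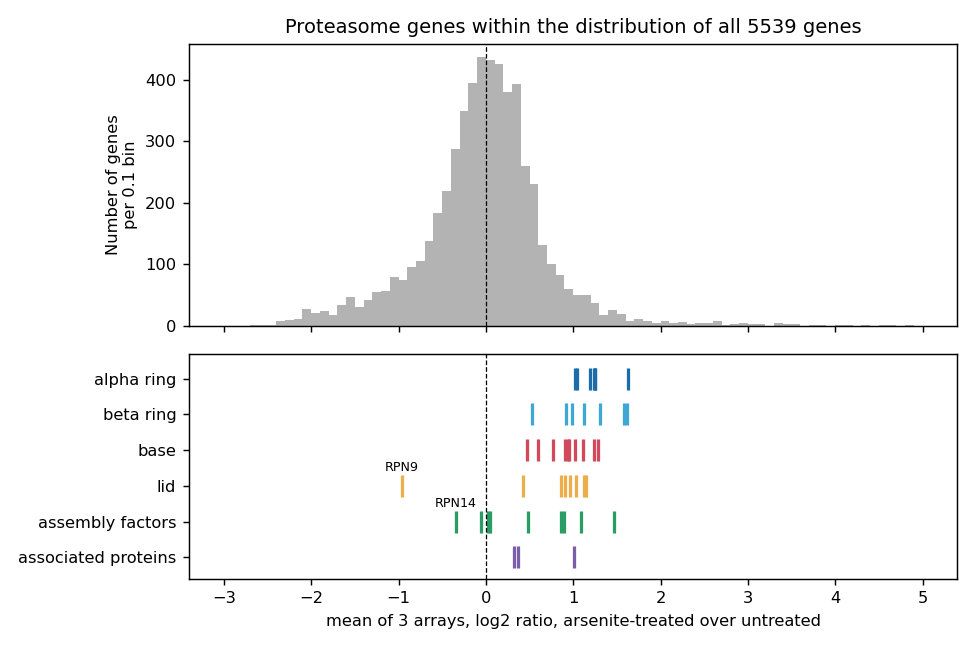
The upper panel counts all 5539 genes by their mean log2 ratio of arsenite-treated over untreated cells, in bins of 0.1, and the lower panel marks each proteasome gene by class on the same axis. All measured subunits except RPN9 lie at or above 0.43, whereas 4 assembly factors lie between -0.34 and 0.04.

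The assembly factors were divided. Of 9 genes 4 rose and 5 did not pass, with class medians of 0.34, 0.53 and 0.50 on the 3 arrays. That was below the median of the subunits by 0.82, 0.33 and 0.57, on every array. UMP1, which holds the immature beta rings and is degraded as the first substrate of the finished core, had 1.49, 1.41 and 1.52. It was 2.77-fold higher (1.47 ± 0.06, limma adjusted p = 3.52e-05), a value within the range of the core subunits and nearly equal on the 3 arrays.

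The pair of heterodimers that build the alpha ring behaved differently from each other. PBA1 had 0.67, 0.53 and 1.39 (0.86 ± 0.46, limma adjusted p = 0.00562), and its partner ADD66 had 0.95, 0.84 and 0.90 (0.90 ± 0.05, adjusted p = 0.00162). Both rose, by 1.82-fold and 1.86-fold. IRC25 had 0.08, 0.14 and -0.09 (0.04 ± 0.12, adjusted p = 0.876), and its partner POC4 had -0.02, -0.47 and 0.31 (-0.06 ± 0.39, adjusted p = 0.845). The 95% intervals of -0.34 to 0.43 for IRC25 and -0.49 to 0.37 for POC4 leave out a 2-fold rise. The mean of PBA1 and ADD66 exceeded that of IRC25 and POC4 by 0.78, 0.85 and 1.03 on the 3 arrays, a comparison made after the values were seen and not tested.

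The 4 base chaperones, each of which binds the C-terminal domain of an ATPase during assembly, differed among themselves as well. NAS6, the yeast counterpart of gankyrin and partner of Rpt3, had 0.98, 1.37 and 0.93. It was 2.13-fold higher (1.09 ± 0.24, limma adjusted p = 0.000519), below RPT3 by 0.25, 0.13 and 0.18. NAS2, the partner of Rpt5, had 0.34, 0.62 and 0.50 (0.49 ± 0.14, adjusted p = 0.0537) and lay below RPT5 by 0.60, 0.35 and 0.93. HSM3, the partner of Rpt1, had 0.08, -0.38 and 0.38 (0.03 ± 0.39, adjusted p = 0.930), below RPT1 by 1.48, 1.03 and 1.12. RPN14, the partner of Rpt6, had -0.12, -0.27 and -0.64 (-0.34 ± 0.27, adjusted p = 0.184), below RPT6 by 1.31, 0.80 and 1.65. In each pair the chaperone was lower than its ATPase on all 3 arrays. RPN14 and RPN9 were the 2 genes of the 44 with values below 0 on all 3 arrays.

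**Figure D4:**
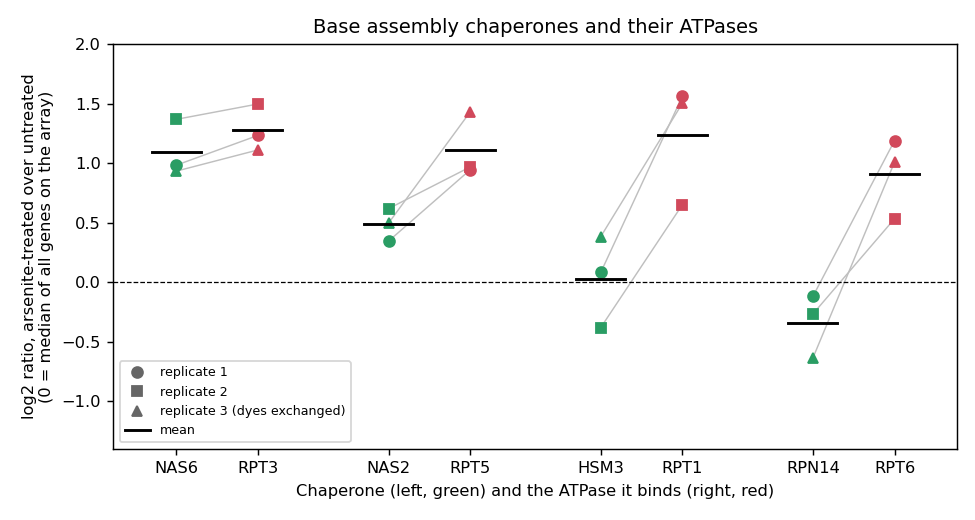
Log2 ratios (arsenite-treated over untreated) are plotted for the 4 base chaperones and the ATPase each binds, with 1 symbol per array, grey lines joining values of the same array and black bars for means. NAS6 and RPT3 lie close together (1.09 and 1.28), whereas HSM3 and RPN14 lie more than 1 below RPT1 and RPT6.

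Of the 3 associated proteins, ECM29 rose and the others did not pass. ECM29, a large scaffold that bridges the core and the regulatory particle, had 0.91, 0.98 and 1.12 and was 2.01-fold higher (1.00 ± 0.11, limma adjusted p = 0.000741). UBP6, a deubiquitinase that docks on Rpn1, had 0.75, 0.05 and 0.31 (0.37 ± 0.35, adjusted p = 0.167), and it passed when replicate 2 was left out (0.53, adjusted p = 0.0454). Without replicate 1 it was 0.18 (limma adjusted p = 0.789). BLM10, an activator that caps the core in place of the regulatory particle, had 0.39, 0.14 and 0.46 (0.33 ± 0.17, adjusted p = 0.189). That mean joins 2 pairs of spots that disagreed. One pair had 0.66, 0.82 and 0.86 (0.78 ± 0.11) and the other 0.12, -0.55 and 0.05 (-0.13 ± 0.37), so no single level can be given for BLM10.

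Genes that face the proteasome genes on the chromosome rose at about the share of all genes. In the RefSeq gene order of assembly R64, 29 of the 44 genes have a divergently transcribed gene directly upstream, so the start regions of both face each other. Of these neighbours 25 were measured, 3 rose and 7 fell, with a median of -0.21. The shares were 12.0% that rose and 28.0% that fell, beside 14.5% and 18.1% of all genes. PRE2 lies head to head with RPL11A, a ribosomal protein gene that fell (-2.20 ± 0.18, limma adjusted p = 2.04e-06). NAS6 and RPN11 lie head to head with PHB2, a prohibitin gene (1.33 ± 0.10), and YPI1, a regulator of protein phosphatase (1.25 ± 0.10), which both rose, as did ALG13 (1.26 ± 0.25) beside RPT6. RET2, a coatomer gene that lies between PRE4 and RPN12, had 0.08 ± 0.11 (adjusted p = 0.765), whereas both flanking genes rose.

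Of 33 other genes of the ubiquitin-proteasome pathway, 16 rose, 4 fell and 13 did not pass. The shares were 48.5% that rose and 12.1% that fell, beside 14.5% and 18.1% of all genes, so the falls were no more frequent than over the whole array. These genes are a selection from the pathway, chosen with earlier results of these data known. Their shares, here and for the groups below, describe the list and were not tested. Of the 7 regulators 2 rose. RPN4 had 1.41, 1.65 and 1.45 and rose (1.50 ± 0.13, limma adjusted p = 3.28e-05). YAP1, a thiol-sensing transcription factor that acts on RPN4, had 0.69, 0.88 and 0.78 (0.78 ± 0.09, adjusted p = 0.00411), a call lost on leaving out replicate 1 (adjusted p = 0.0508). HSF1, the heat shock factor gene, had 0.64, 1.00 and -0.02 (0.54 ± 0.52, limma adjusted p = 0.0684). HSF1 was 0.82 without replicate 3 (adjusted p = 0.00222) and 0.31 without replicate 2 (adjusted p = 0.264). UBR2 was -0.82 without replicate 3 (adjusted p = 0.00232) and -0.36 without replicate 1 (adjusted p = 0.513). PDR1 was 0.54 without replicate 2 (adjusted p = 0.0411) and 0.18 without replicate 3 (adjusted p = 0.583). With all arrays, PDR1 (0.38), PDR3 (-0.02), MUB1 (0.37) and UBR2 (-0.55) did not pass, where Mub1 and the ubiquitin ligase Ubr2 target Rpn4 for degradation.

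Among proteasome-bound and delivery factors, 4 of 8 rose and 1 fell. The shares were 50.0% and 12.5%, beside 14.5% and 18.1% of all genes, so the share that fell was below that of the array. CUZ1, a zinc-finger protein that links Cdc48 to the proteasome under arsenite, had 1.32, 1.20 and 1.35 (1.29 ± 0.08, limma adjusted p = 9.81e-05). TMC1 of the same family had 1.13, 1.03 and 1.40 (1.19 ± 0.19). TMA17, a stress-induced chaperone of base assembly, had 0.57, 0.15 and 1.15 (0.62 ± 0.50, adjusted p = 0.0383), a call lost without replicate 1 (adjusted p = 0.162) or replicate 3 (0.237) and with uncentred arrays (0.0605). SPG5, a proteasome regulator of stationary-phase cells, rose (0.76 ± 0.25), though not without replicate 1 (limma adjusted p = 0.0502). CIC1, a nucleolar protein first described as a proteasome-bound adaptor and known for ribosome assembly, fell (-1.52 ± 0.21). The others, STS1 (0.36 ± 0.35), FUB1 (0.21 ± 0.23) and HUL5 (-0.06 ± 0.34), did not pass.

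Genes that carry substrates to the proteasome were higher in most cases. DDI1, a shuttle with a protease-like domain, had 1.84, 2.29 and 2.16 and was the second highest of the 33 (2.10 ± 0.23, limma adjusted p = 2.98e-06). DSK2 had 1.22, 0.64 and 1.48 (1.12 ± 0.43), and RAD23 had 0.59, -0.11 and 0.50 (0.33 ± 0.38, adjusted p = 0.222). RAD23 was 0.55 without replicate 2 (limma adjusted p = 0.0321) and 0.20 without replicate 1 (adjusted p = 0.763). Of the 6 genes around the Cdc48 segregase, which extracts ubiquitin-tagged proteins from complexes, 5 rose and 1 fell. The shares were 83.3% and 16.7%, beside 14.5% and 18.1% of all genes, so the share that fell was near that of the array. Those that rose were UFD1 (1.46 ± 0.15), CDC48 itself (1.03 ± 0.16), OTU1 (0.97 ± 0.22), SHP1 (0.90 ± 0.15) and NPL4 (0.61 ± 0.11). The call of NPL4 was lost without replicate 1 (limma adjusted p = 0.238) and with uncentred arrays (0.0680). UFD2, a ligase that extends ubiquitin chains on Cdc48 substrates, had -1.37, -1.01 and -1.41 and fell (-1.26 ± 0.22, adjusted p = 0.000154).

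Of the 9 ubiquitin genes and enzymes 3 rose and 2 fell, shares of 33.3% and 22.2% beside 14.5% and 18.1% of all genes. UBC5, a ubiquitin-conjugating enzyme induced by stress, had 1.96, 2.78 and 2.53 (2.42 ± 0.42, limma adjusted p = 2.14e-06), whereas its close paralog UBC4 had 0.41, 0.13 and 0.44 (0.33 ± 0.17, adjusted p = 0.187). Cross-hybridisation between these paralogs was not tested. UBA1, the activating enzyme, rose (0.88 ± 0.06), as did the deubiquitinase gene DOA4 (0.67 ± 0.27). UBR1, the ligase of the N-degron pathway, fell (-0.57 ± 0.09, adjusted p = 0.0255), as did UBP14, which takes apart free ubiquitin chains (-0.68 ± 0.31, adjusted p = 0.0148). UBI4, the polyubiquitin gene, had -0.35, -1.03 and 0.03 (-0.45 ± 0.54, adjusted p = 0.128), while RAD6 had 0.25 ± 0.28 and UFD4 -0.0017 ± 0.13. The calls of DOA4, UBR1 and UBP14 were lost without replicate 1 (limma adjusted p = 0.154, 0.298 and 0.0746), and those of UBR1 and UBP14 also with uncentred arrays (0.256 and 0.144). UBI4 was -0.69 without replicate 3 (limma adjusted p = 0.0119) and -0.16 without replicate 2 (adjusted p = 0.560).

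**Figure D5:**
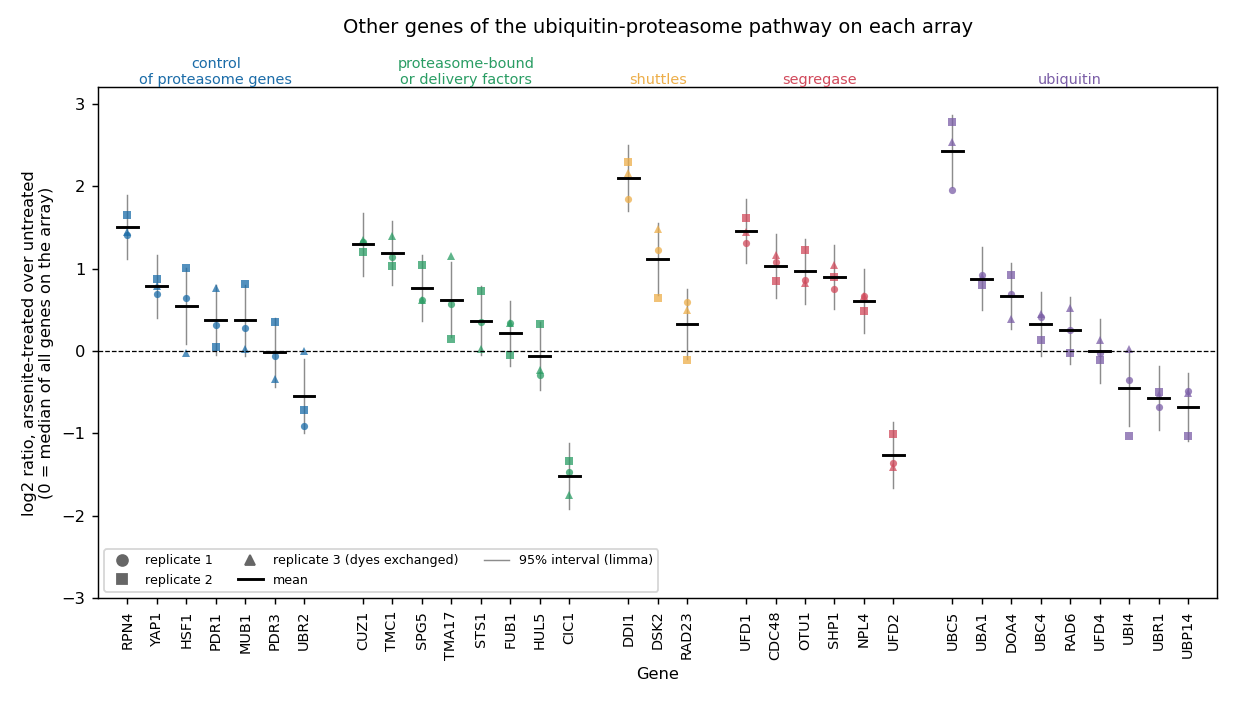
Log2 ratios (arsenite-treated over untreated) for 33 other genes of the pathway, drawn by role with 1 symbol per array, black bars for means and grey lines for the 95% interval of the limma fit. RPN4, DDI1, UFD1 and UBC5 lie at 1.46 or higher in their means, and CIC1 and UFD2 lie below -1.2.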

How the data were processed

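The deposited table holds the authors' log ratios of the 2 channels for 13056 spots on each of 3 arrays. The deposited values were taken as log2; the base is not named, and their range does not tell base 2 from a natural logarithm. No source used here names the scanner, background correction or normalization. Spots were named through the platform annotation (11138 with 1 symbol, 0 with several, 1918 with none), and 5534 of 5539 gene IDs matched RefSeq's R64 table. Spots were averaged per gene and array, replicate 3 was multiplied by -1, and each array was centred on its gene median. limma 3.58.1 (lmFit and eBayes, R 4.3.3) then tested whether the mean over arrays differs from 0 (prior degrees of freedom 10.8, residual 2). A gene that did not pass may still have changed. Summaries used Python 3.11.15, pandas 2.3.3 and matplotlib 3.10.9. No filter on dim spots was possible because the table holds no intensities, and the number of arrays limits the precision. The members, classes and lists were chosen with earlier results of these data known. The naming rule gave in full the 3 highest and the lowest gene of each ring, base and lid, all assembly factors and associated proteins, members below 0, pathway genes past the test, and RPN4, YAP1, HSF1 and TMA17; other genes were named in addition. Alternatives covered centring, scaling, quantile normalization, a dye effect, robust eBayes, a spot filter and each array left out. No promoter or protein sequence was analysed here.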

Additional observations from a re-analysis of the deposited data

How the results depend on the processing

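Class medians here are medians of the genes' means over arrays. The count of 32 proteasome genes that rose stayed between 28 and 36, and that of 1 that fell stayed at 1, under all 10 alternative settings. No gene of the 44 changed sign with a call in either setting. The calls of PUP2, PUP3, RPT6 and RPN3 were lost without replicate 1. PRE2, RPN2, RPN13 and UBP6 gained one without replicate 2, and so did PRE2, RPN2, RPN13 and NAS2 with a dye effect in the fit. PRE2 and RPN13 also passed after quantile normalization, and RPN13 after scaling. The standard errors differed between these fits. limma gave all genes a common variance without replicate 1, without replicate 3, with uncentred arrays and with a dye effect in the fit. Calls there, including those of HSF1, UBR2 and UBI4 without replicate 3, do not use a gene's own spread. The median standard error over genes was 0.319, 0.234, 0.29 and 0.203 in that order. It was 0.188 in the main fit and 0.194 without replicate 2. A call lost without replicate 1 therefore need not reflect a lower mean: DOA4 had 0.66 there and 0.67 with all arrays. Over all genes, 805 rose and 1004 fell. Leaving out 1 array gave 412 to 939 that rose and 602 to 1071 that fell, the lowest of both without replicate 1. As deposited, with no centring, 603 fell, and the medians were 1.07 for the 44 genes (0.98 when centred), 1.21 for the beta ring (1.12), 1.03 for the base (0.94) and 1.03 for the lid (0.94). The spot filter, which removed BLM10, moved the median of the associated proteins to 0.69 (0.37 with BLM10). With 1 array left out the beta ring median was 1.05 to 1.20. The beta minus alpha difference was -0.21 to 0.11, of either sign, and by this measure -0.11 with all arrays, opposite in sign to the mean of the array-wise differences. Were the logarithm natural, 32 of the 44 would have risen at least 2-fold in place of 21. The share of all genes was not computed under that reading, and the 5.29% given for all genes holds for base 2. The assembly factors stayed below the subunits under every alternative (-0.69 to -0.44), with the smallest difference without replicate 1. The base (-0.28 to -0.14) and lid (-0.36 to -0.15) stayed below the core, with the smallest differences without replicate 3. The planned promoter motif counts were not run. Each array compares treated and untreated RNA directly, so the test of its ratios against 0 is already a paired comparison. The series has 1 group. Signal over background is unknown, since the table holds no intensities.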
